A study of Mus musculus with 6 samples.

Results

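The 10 genes that encode the classical zinc-dependent histone deacetylases Hdac1 to Hdac10 were taken by symbol from a table of 27179 genes and read in each library of a panobinostat experiment. Class I comprises Hdac1, Hdac2, Hdac3 and Hdac8, class IIa Hdac4, Hdac5, Hdac7 and Hdac9, and class IIb Hdac6 and Hdac10. RNA was sequenced from mouse leukaemia cells of the line labelled A/E9a;NRASG12D;Ifnar1-/-, on a C57BL/6 background, which carries a fusion oncogene, an activated NRAS and a deletion of the type I interferon receptor subunit Ifnar1. Both groups share these alleles. The cells were sorted from spleen as GFP-positive and viable by propidium iodide after 3 days of panobinostat or vehicle, with 3 libraries per group. Neither the dose, nor the age of the mice, nor what drove the oncogenes is given in the labels. All libraries come from 1 labelled line, and no label says that the libraries of a group were separate animals, so the p-values measure the spread between these libraries only.

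Histone deacetylases remove acetyl groups from lysines, which in histones goes with closed, silent chromatin. Class I enzymes are mostly nuclear and work inside corepressor complexes. Class IIa enzymes shuttle between nucleus and cytoplasm, bind MEF2 transcription factors, are held in the cytoplasm by 14-3-3 proteins once kinases have phosphorylated them, and have weak catalytic activity of their own. Class IIb holds a mainly cytoplasmic tubulin deacetylase, Hdac6, and a polyamine deacetylase, Hdac10. Panobinostat is a hydroxamate that binds the catalytic zinc of these enzymes, and the AML1-ETO type of fusion recruits class I deacetylases through NCoR corepressors. The measurements here are of transcripts, not of protein or of enzyme activity.

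Total counts ran from 31989622 to 35962605 per library. Vehicle library 1 stood apart from its group. Its log2 CPM (CPM being a gene's counts scaled to a common library size), compared across tested genes that do not count as replicates, had a Pearson r of 0.942 and 0.941 with the other vehicle libraries and of 0.954 to 0.984 with the panobinostat libraries. Panobinostat library 1 also differed from its group, with r of 0.971 and 0.963 against 0.987 between the other panobinostat libraries. Member estimates and list medians that changed sign or moved by over 1.5 times without vehicle library 1 are given without it too. Where a result gives values for the 3 libraries of a group, they follow the order of library 1, 2 and 3. Ifnar1 ranged from 36.9 to 48.0 CPM with vehicle and from 35.7 to 46.4 CPM with panobinostat. Which part of the gene was deleted is not given, so these reads do not check the label. The progenitor genes Gata2 and Kit were well expressed in every library, with at least 649 and 121 CPM. Cd34, another progenitor gene, was low, from 0.348 CPM in vehicle library 3 to 6.09 CPM in panobinostat library 1. Summed over each list of markers, T cell, NK cell, granulocyte, and endothelial and stromal genes stayed at or under 11.3, 0.727, 4.56 and 5.40 CPM in every library. Other lists were higher: monocyte and macrophage genes reached 18.9 CPM and B cell genes 43.2 CPM. Plasmacytoid dendritic cell genes ran from 47.4 to 64.2 CPM, with Bst2 the highest gene of that list. The endothelial gene Cdh5 was at 0 in all 6 libraries.

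Windows of 250 bases upstream of an annotated start, from RefSeq on GRCm38.p6, were matched for 7 of the 10 members. RefSeq lists several starts for some genes, which gave 11 windows. The 3 windows that lie outside the gene's RefSeq span are shown, and the other 8 overlap it. They belong to the class IIa genes Hdac5, Hdac7 and Hdac9, whose levels run from the most variable of the tested members (Hdac7) to the member nearest to 0 (Hdac9). Capitals mark matches, searched on both strands, to short motifs. Blood factors were represented by TGTGGT for RUNX and by AGATAA for GATA. The letters CCGGAA stood for ETS factors, and TATTTATA for the MEF2 factors that bind class IIa enzymes. General promoter elements were the GC box, GGGCGG, the CCAAT box and the TATA box, searched as TATAAA. Each motif was searched only in these letters, so a site of the same factor spelled otherwise is not marked. No match among these 3 windows overlaps another.
Hdac5, chr11:102230173-102230422, minus strand: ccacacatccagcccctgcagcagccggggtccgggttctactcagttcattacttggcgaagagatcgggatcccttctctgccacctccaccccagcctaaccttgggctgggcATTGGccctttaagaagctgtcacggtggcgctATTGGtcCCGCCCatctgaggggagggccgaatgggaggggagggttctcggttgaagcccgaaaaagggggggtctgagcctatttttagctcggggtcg
Hdac7, chr15:97844503-97844752, minus strand: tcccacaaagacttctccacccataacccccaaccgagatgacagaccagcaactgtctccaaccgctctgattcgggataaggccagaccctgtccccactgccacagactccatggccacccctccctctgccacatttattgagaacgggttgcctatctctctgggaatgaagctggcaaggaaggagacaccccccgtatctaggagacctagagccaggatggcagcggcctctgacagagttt
Hdac9, chr12:34917096-34917345, minus strand: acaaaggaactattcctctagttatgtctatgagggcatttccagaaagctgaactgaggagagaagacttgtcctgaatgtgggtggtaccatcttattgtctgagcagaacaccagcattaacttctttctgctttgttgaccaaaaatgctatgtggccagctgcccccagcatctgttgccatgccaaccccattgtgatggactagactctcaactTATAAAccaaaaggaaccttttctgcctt
The Hdac5 window holds CCAAT matches that begin 134 and 101 bases before the start and a GC box match that begins 94 bases before it. The Hdac7 window holds no match to these letters. Of the other 3 Hdac7 windows, 1 holds an ETS match, 1 holds GATA, GC box and ETS matches and 1 holds none. The Hdac9 window holds a TATA match that begins 29 bases before the start, and the other Hdac9 window holds no match. G and C make up 60.8% of the Hdac5, 56.4% of the Hdac7 and 44.4% of the Hdac9 window. Of all 32851 windows, 14% hold the RUNX letters, 9.99% GATA, 32.7% the GC box, 33.8% CCAAT, 12.4% TATA, 12% ETS and 1.56% MEF2, and the median G and C content is 52.4%. These matches describe the letters of the windows. No binding was measured.

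In order of level, Hdac1 stood first and Hdac9 last by a wide margin. Levels of different genes are compared as CPM per kilobase of exon, as a mean over the 6 libraries. On this scale Hdac1 stood at 53.6 ± 4.70, Hdac7 at 37.3 ± 13.8, Hdac2 at 26.04 ± 2.61, Hdac3 at 20.01 ± 1.97 and Hdac10 at 18.6 ± 1.01 (SD, n = 6 libraries of both groups). Hdac5 followed at 7.35 ± 0.688, Hdac6 at 4.26 ± 0.609, Hdac8 at 3.61 ± 0.227, Hdac4 at 0.874 ± 0.137 and Hdac9 at 0.0103 ± 0.0119 (SD, n = 6 libraries of both groups). Some neighbours in this order had ranges that overlapped: Hdac1 with Hdac7, Hdac7 with Hdac2, Hdac2 with Hdac3, Hdac3 with Hdac10, and Hdac6 with Hdac8. Ranges were separate between Hdac10 and Hdac5, Hdac5 and Hdac6, Hdac8 and Hdac4, and Hdac4 and Hdac9. With the longest coding sequence as the length in place of exons, the order was the same except that Hdac8 stood above Hdac6.

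**Figure D1:**
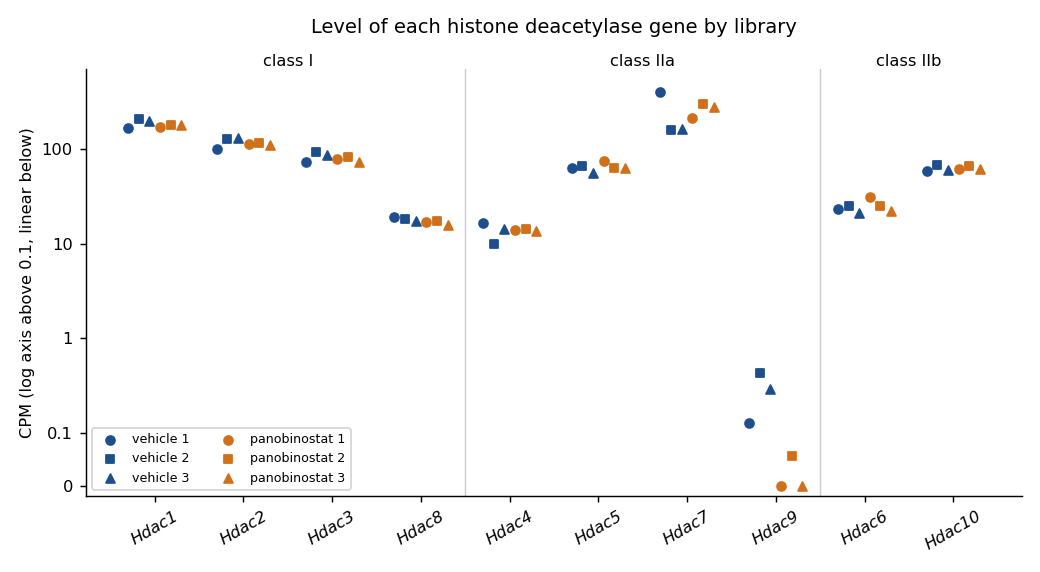
CPM of the 10 histone deacetylase genes in each library, with vehicle in blue, panobinostat in orange and library numbers by symbol. The vertical axis is logarithmic above 0.1 CPM and linear below. Hdac7 spans 159 to 401 CPM, and Hdac9 is at 0 in panobinostat libraries 1 and 3.

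Hdac1 and Hdac2 are close paralogs that form the catalytic core of the SIN3, NuRD and CoREST complexes. Hdac1 (Entrez gene 433759, chromosome 4, 129516104 to 129542646, GRCm38.p6) measured 169, 209 and 199.5 CPM with vehicle and 170.15, 180.3 and 180.35 CPM with panobinostat. The groups overlapped, because vehicle library 1 was the lowest of all 6 while vehicle libraries 2 and 3 were the highest. Its log2 fold change, panobinostat over vehicle, was -0.12 (SE 0.111, 95% interval -0.39 to 0.15), with an edgeR quasi-likelihood adjusted p of 0.998. RefSeq also lists a pseudogene, Hdac1-ps, on chromosome 17 (78491565 to 78493541), and how reads shared by both copies were counted is not given in the sources used here. Hdac2 (Entrez gene 15182, chromosome 10, 36974297 to 37001889) measured 99.8, 128 and 131 CPM with vehicle and 113, 116 and 110.4 CPM with panobinostat. Vehicle library 1 was again the lowest, and vehicle libraries 2 and 3 the highest. The log2 fold change of Hdac2 was -0.08 (SE 0.128, 95% interval -0.39 to 0.23).

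The balance of the pair was steady. Per kilobase of exon, the ratio of Hdac1 to Hdac2 was 2.20, 2.12 and 1.97 with vehicle and 1.95, 2.01 and 2.12 with panobinostat. The range of the panobinostat libraries overlapped that of the vehicle libraries, and vehicle library 1 did not stand far from the rest in this ratio.

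Hdac3 is the catalytic subunit of the NCoR complexes. It (Entrez gene 15183, chromosome 18, 37936971 to 37955015) measured 73.0, 92.4 and 87.7 CPM with vehicle and 78.5, 82.7 and 72.5 CPM with panobinostat. Vehicle libraries 2 and 3 were the highest, while vehicle library 1 and panobinostat library 3 were the lowest and nearly equal. The Hdac3 log2 fold change was -0.11 (SE 0.121, 95% interval -0.41 to 0.18).

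Hdac8, a class I enzyme that works outside these complexes and deacetylates the cohesin subunit Smc3, was the only tested member whose groups did not overlap. It (Entrez gene 70315, chromosome X, 102284638 to 102505381) measured 19.0, 18.3 and 17.5 CPM with vehicle and 17.1, 17.2 and 15.8 CPM with panobinostat. The gap between the groups was small beside the spread within them. Its log2 fold change was -0.13 (SE 0.116, 95% interval -0.41 to 0.15, edgeR adjusted p 0.998), a mean of 91.5% of the vehicle level. That is 1 of 9 tested members with separate groups, where 7.43% of all tested genes had separate groups, 3.79% on the higher and 3.63% on the lower side. An antisense transcript of GENCODE, Gm14858, overlaps part of Hdac8, and the strand setting of the counting is not given, so reads of both genes cannot be told apart there. Other GENCODE gene spans overlap Hdac4 (Gm37048, Gm26720 and Gm37036), Hdac5 (Mir8101), Hdac7 (Slc48a1) and Hdac9 (Gm18025, Gm47357, 4921508M14Rik and Gm24429). How reads in those overlaps were counted is likewise not given. Hdac7 and Slc48a1 share only bases 97792664 to 97792692.

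**Figure D2:**
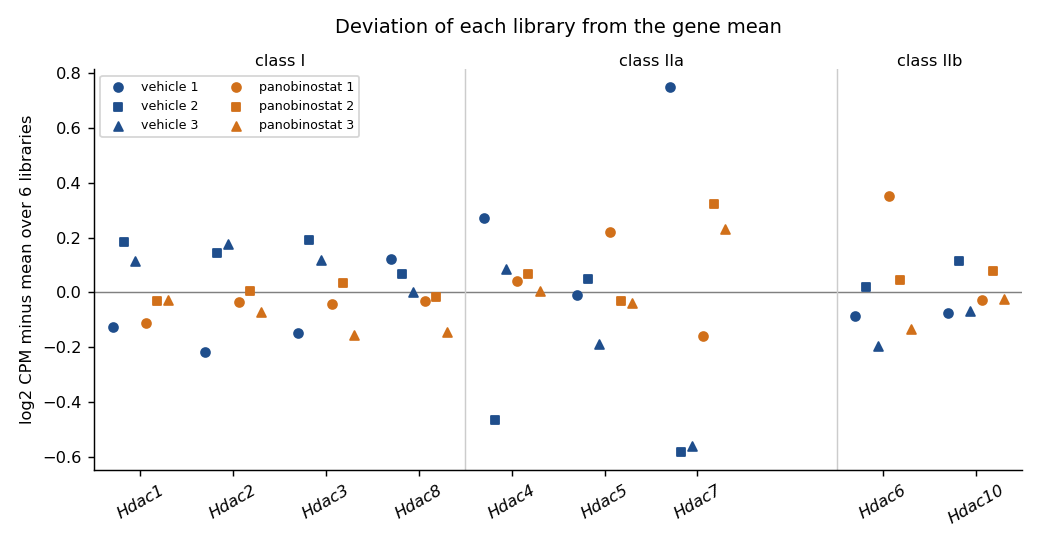
Log2 CPM of each library minus the mean of the 6 libraries, for the 9 tested members, with vehicle in blue and panobinostat in orange. For Hdac7, vehicle library 1 stands at 0.75 and vehicle libraries 2 and 3 at -0.58 and -0.56, while for Hdac1, Hdac2 and Hdac3 vehicle library 1 stands below vehicle libraries 2 and 3.

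Hdac7, a class IIa member known for its roles in lymphocyte development and in blood vessels, was the most variable of the 9 tested members. It (Entrez gene 56233, chromosome 15, 97792661 to 97844502) measured 401, 159 and 162 CPM with vehicle and 214, 298 and 280.2 CPM with panobinostat. Vehicle library 1 was the highest and the other vehicle libraries the lowest, with the 3 panobinostat libraries between them. The highest library was 2.52 times the lowest, and no other tested member exceeded 1.67 times. With all 6 libraries its log2 fold change was 0.13 (SE 0.391, 95% interval -0.81 to 1.08), with an edgeR adjusted p of 0.998.

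Without vehicle library 1 the Hdac7 estimate was 0.71 (SE 0.161), with an edgeR adjusted p of 0.0918 and an unadjusted p of 0.00494, and the 3 panobinostat libraries averaged 1.65 times the other vehicle libraries. Without both libraries numbered 1 it was 0.84 (SE 0.0850) and was called higher with an edgeR adjusted p of 0.00365. In that last setting Hdac7 was 1 of 10 members called, where 12% of all tested genes were called (7.36% higher, 4.65% lower), so the share of members is near the background. Leaving out vehicle library 2 or 3 in place of library 1 turned the estimate to -0.09 or -0.08.

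Some megakaryocyte markers were high and low in the same libraries as Hdac7, and others were not. The summed level of the 7 markers was 51.0 to 245 CPM in vehicle and 69.8 to 160 CPM in panobinostat libraries, and it was highest in vehicle library 1, as Hdac7 was. Itga2b, the integrin chain of platelets, measured 149, 3.99 and 2.90 CPM with vehicle and 13.0, 54.5 and 85.9 CPM with panobinostat. Itga2b made up most of the sum in vehicle library 1. Vwf, von Willebrand factor, was instead highest in panobinostat library 1, at 2.03 CPM. Gp1ba, a platelet glycoprotein, measured 70.1, 44.0 and 43.3 CPM with vehicle and 53.0, 51.1 and 48.1 CPM with panobinostat. Vehicle library 1 was its highest and the other vehicle libraries its lowest, as for Hdac7. Among panobinostat libraries Gp1ba was highest in library 1, where Hdac7 was lowest. The part of such markers in the Hdac7 values was not tested. In sorted bulk samples, a different number of cells of a type and a different amount of RNA per cell cannot be told apart.

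The other class IIa members were lower and steadier, or nearly silent. Hdac5 (Entrez gene 15184, chromosome 11, 102195747 to 102230172), a signal-responsive repressor, measured 63.9, 66.5 and 56.5 CPM with vehicle and 74.9, 62.9 and 62.6 CPM with panobinostat. Panobinostat library 1 was the highest, and the rest of its group lay within the vehicle range. The Hdac5 log2 fold change was 0.10 (SE 0.118, 95% interval -0.18 to 0.39). Hdac4 (Entrez gene 208727, chromosome 1, 91928779 to 92195702), the founding member that binds MEF2 in muscle and bone, measured 16.5, 9.90 and 14.5 CPM with vehicle and 14.1, 14.3 and 13.7 CPM with panobinostat. All 3 panobinostat libraries lay inside the vehicle range, and the log2 fold change was 0.04 (SE 0.209, 95% interval -0.46 to 0.54). It was 0.19 (SE 0.198) without vehicle library 1 and -0.14 without vehicle library 2.

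Hdac9, a class IIa member that also has a short form without the catalytic domain, was counted at only 4, 15 and 10 reads in vehicle and at 0, 2 and 0 reads in panobinostat libraries 1, 2 and 3. It (Entrez gene 79221, chromosome 12, 34047580 to 34917095) did not pass the filter on low counts with all libraries and was not part of that test. In CPM these counts are 0.126, 0.430 and 0.290 against 0, 0.0562 and 0. A count of 0 allows up to 3 reads, which is 0.0834 CPM in panobinostat library 1 and 0.0890 in library 3. Pooled over libraries, 29 reads in vehicle against 2 in panobinostat give a level 15.1 times higher in vehicle, with an exact 95% binomial interval of 3.82 to 131 that covers counting error only, as PCR copies were not told apart by molecular identifiers. The spread between libraries is not in that interval. Tested with no filter on low counts, Hdac9 had an unadjusted p of 0.0142 and an edgeR adjusted p of 0.977.

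The summed levels of B cell and of T cell markers were both highest in vehicle library 2, as Hdac9 was. The summed level of the 8 B cell markers was 23.2, 43.2 and 28.9 CPM with vehicle and 4.89, 9.98 and 24.02 CPM with panobinostat, and none of the 8 was at 0 in all libraries. The 8 T cell markers summed to 9.41, 11.3 and 8.35 CPM and to 2.06, 5.20 and 9.37 CPM. Of the T cell markers, only Lck and Cd5 were themselves highest in vehicle library 2. Lck alone gave 5.88 CPM of the sum there. Panobinostat library 3 had both sums within the vehicle range and no Hdac9 read. The part of these markers in the Hdac9 counts was not tested.

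Class IIb genes showed no separation of the groups. Hdac6 (Entrez gene 15185, chromosome X, 7930116 to 7948047), the tubulin deacetylase, measured 23.2, 24.9 and 21.4 CPM with vehicle and 31.3, 25.3 and 22.4 CPM with panobinostat. Panobinostat library 1 was the highest, and panobinostat library 3 lay within the vehicle range. Its log2 fold change of 0.19 (SE 0.155, 95% interval -0.19 to 0.56) was the largest estimate among the tested members, at an edgeR adjusted p of 0.998, and it was 0.03 (SE 0.126) without both libraries numbered 1. Panobinostat library 1 also had the highest summed level of the 8 mast cell and basophil markers, at 2421 CPM against 832 to 979 CPM in the others. The summed level of the 10 erythroid markers was lowest in that library, at 2296 CPM against 5517 to 12980 CPM in the others. The part of both lists in the Hdac6 and Hdac5 values of that library was not tested. Without panobinostat library 1 the log2 fold change was 0.04 for Hdac6 and 0.01 for Hdac5. Hdac10 (Entrez gene 170787, chromosome 15, 89123303 to 89128700), the polyamine deacetylase, was the steadiest tested member, at 59.5, 67.8 and 59.8 CPM with vehicle and 61.4, 66.1 and 61.6 CPM with panobinostat. Its log2 fold change was 0.02 (SE 0.0970, 95% interval -0.22 to 0.25), and -0.03 without vehicle library 1.

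None of the 9 tested members was called with panobinostat. Among them 5 had a higher and 4 a lower estimate, from -0.13 for Hdac8 to 0.19 for Hdac6, with a median of 0.02, where the median over 13207 tested genes was 0.00090. The smallest unadjusted p of a member was 0.275 by edgeR, and 0 members had one under 0.05. The count called over all genes was also 0, so 0% of the background was called, and 2.28% of all tested genes had an unadjusted p under 0.05. DESeq2 and limma-voom called 0 members as well, where DESeq2 called 9 of all genes (0.0686%, with 0.0534% higher and 0.0152% lower) and limma-voom 0. The 95% intervals show which changes remained possible at this spread: for Hdac1 the interval ran from -0.39 to 0.15, and for Hdac7 from -0.81 to 1.08.

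Without vehicle library 1, groups were separate for 5 of the 9 members that were tested with all libraries. Hdac1, Hdac2, Hdac3 and Hdac8 were lower in the panobinostat libraries, at 86.6%, 87.4%, 86.6% and 93.4% of the mean of vehicle libraries 2 and 3, and Hdac7 was higher at 165%. Over all tested genes, 19.9% had separate groups on the lower side and 21% on the higher side in this setting. By edgeR the log2 fold changes were -0.22 (SE 0.0841) for Hdac1, -0.21 (SE 0.0817) for Hdac2, -0.22 (SE 0.0916) for Hdac3 and -0.11 (SE 0.114) for Hdac8, with adjusted p of 0.226, 0.236, 0.256 and 0.643. No member was called in this setting, where 2.42% of all tested genes were called, 2% higher and 0.419% lower. Hdac9 entered the test here through its 15 and 10 reads in vehicle libraries 2 and 3, with an edgeR adjusted p of 0.119.

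**Figure D3:**
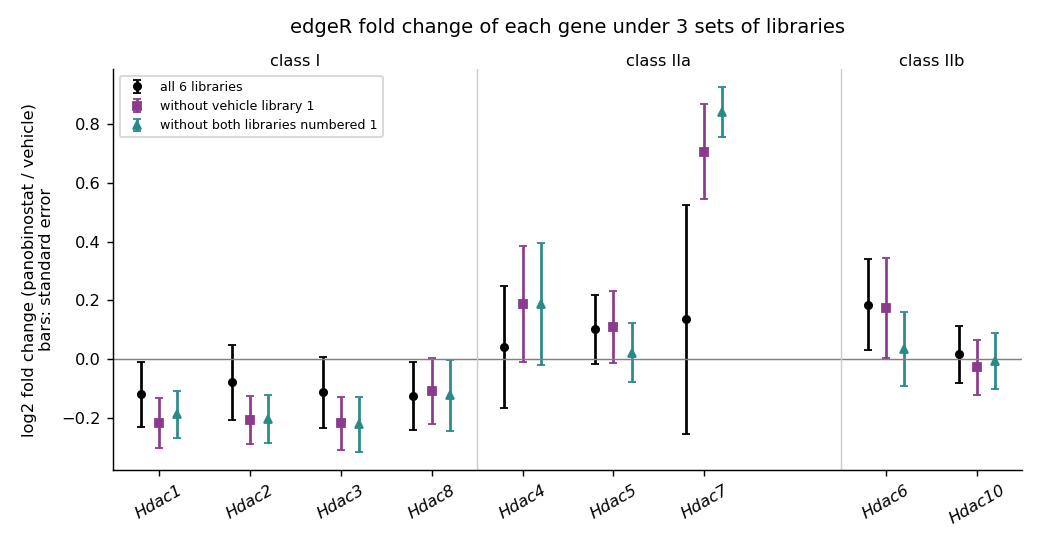
Log2 fold change of panobinostat over vehicle by edgeR for the 9 tested members, with standard errors, for all 6 libraries (black), without vehicle library 1 (purple) and without both libraries numbered 1 (teal). The Hdac7 estimate moves from 0.13 to 0.71 and 0.84, and the estimates of Hdac1, Hdac2 and Hdac3 from between -0.12 and -0.08 to between -0.22 and -0.19.

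Summed by class, class I held the largest part of the deacetylase signal in every library. Per kilobase of exon, class I summed to 93.2, 116 and 112.5 CPM with vehicle and 97.6, 102 and 98.2 CPM with panobinostat. Class IIa summed to 67.6, 31.8 and 31.3 CPM with vehicle and 41.05, 52.2 and 49.5 CPM with panobinostat. Class IIb summed to 21.6, 24.3 and 21.4 CPM and to 23.6, 23.9 and 22.1 CPM. Vehicle library 1 had the lowest class I and the highest class IIa sum, while class IIb was alike in all libraries.

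The ratio of class I to class IIa was 1.38, 3.64 and 3.59 with vehicle and 2.38, 1.96 and 1.98 with panobinostat. The panobinostat libraries lay between vehicle library 1 and the other vehicle libraries, so the groups overlapped. On the log2 scale the ratio was 1.39 ± 0.804 with vehicle and 1.07 ± 0.156 with panobinostat (SD, n = 3), and 1.86 in vehicle without library 1. Hdac7 carried 74.1 to 87.7% of the class IIa sum, so this ratio followed Hdac7 more than the other class IIa genes. The log2 ratio of class I to class IIb was 2.25 ± 0.142 with vehicle and 2.1 ± 0.0508 with panobinostat (SD, n = 3). The sum over all 10 members was 173 ± 8.70 and 170.1 ± 8.12 CPM per kilobase (SD, n = 3), a difference smaller than the spread within either group. Since members were summed as they were chosen, these class values are given without a test.

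**Figure D4:**
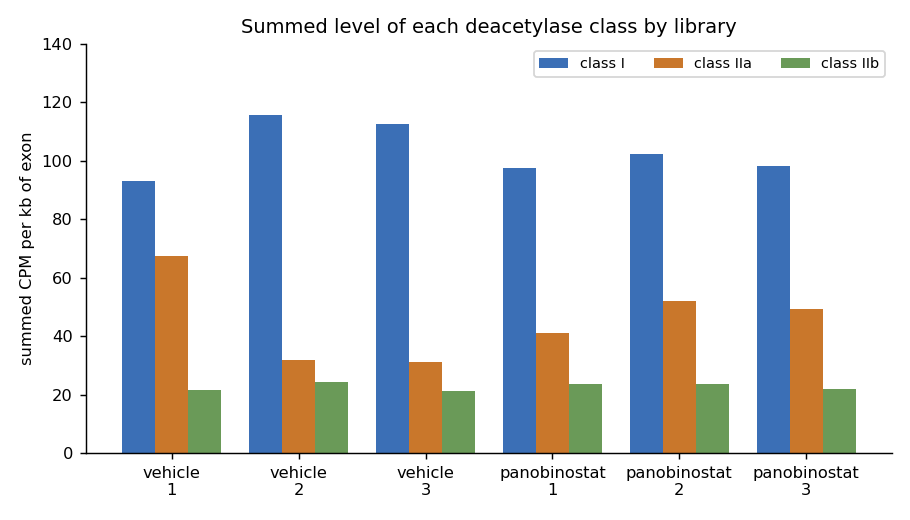
Summed CPM per kilobase of exon for class I, class IIa and class IIb in each of the 6 libraries. Class IIa reaches 67.6 in vehicle library 1 and 31.3 to 31.8 in the other vehicle libraries, with the panobinostat libraries between them at 41.05 to 52.2.

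Genes whose pattern over the 6 libraries was most like that of the leading member of each class are given as a description. Many genes shared these patterns: of 10586 genes compared, 211 had a Pearson r of at least 0.95 with Hdac1 and 254 with Hdac7. Closest to Hdac1 were Urod, an enzyme of haem synthesis (r = 0.997), Cops6, a COP9 signalosome subunit (r = 0.996), and Slc35b1, a nucleotide transporter (r = 0.995). Urod measured 114, 238 and 197 CPM with vehicle and 124, 146 and 143 CPM with panobinostat, which repeats the order of vehicle library 2 over 3 over the rest. Closest to Hdac7 were Ltc4s, the leukotriene C synthase (r = 0.995), Adcy7, an adenylyl cyclase (r = 0.994), and Pkd1l2, a polycystin relative (r = 0.994). Adcy7 measured 923, 518 and 538 CPM with vehicle and 661, 783 and 735 CPM with panobinostat.

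The deacetylases outside classes I and II showed no call either. Of Hdac11, the class IV enzyme, and the 7 NAD-dependent sirtuins, all 8 were tested, with 4 estimates above and 4 below 0, and the median log2 fold change was -0.01, or 0.14 without vehicle library 1. Hdac11, a zinc-dependent enzyme as the members are, measured 21.3, 41.3 and 36.5 CPM with vehicle and 22.3, 30.5 and 28.9 CPM with panobinostat. Vehicle library 1 was the lowest and the other vehicle libraries the highest, as for Hdac1 and Hdac2. The log2 fold change of Hdac11 was -0.28 (SE 0.265), and -0.53 (SE 0.160, edgeR adjusted p 0.153) without vehicle library 1. Sirt1, a nuclear NAD-dependent deacetylase, averaged 56.5 ± 10.7 CPM with vehicle and 46.2 ± 0.870 with panobinostat (SD, n = 3). The log2 fold change of Sirt1 was -0.29 (SE 0.153, edgeR adjusted p 0.998), and -0.45 without vehicle library 1 (edgeR adjusted p 0.0744). Without both libraries numbered 1 it was called lower, at -0.45 with an edgeR adjusted p of 0.0343, where 4.65% of all tested genes were called lower.

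The SIN3, NuRD and CoREST complexes house class I enzymes. The median estimates of their subunits were near 0, while some single genes lay further off. For the SIN3 complex all 12 genes were tested, with 7 higher and 5 lower estimates and a median log2 fold change of 0.02, or -0.02 without vehicle library 1. Sin3b, a scaffold, stood at 92.1 ± 6.01 and 82.7 ± 4.90 CPM (SD, n = 3). For NuRD all 12 were tested, 8 higher and 4 lower, with a median of 0.02, or -0.04 without vehicle library 1. Mta1, a subunit of NuRD, measured 96.8, 93.8 and 104 CPM with vehicle and 143, 119 and 111 CPM with panobinostat. The Mta1 groups were separate, with a log2 fold change of 0.34 (SE 0.123, edgeR adjusted p 0.998). Its relative Mta2 had separate groups on the lower side, at 496 ± 4.42 and 461 ± 47.4 CPM (SD, n = 3). The Mta2 log2 fold change was -0.11 (SE 0.111, edgeR adjusted p 0.998). These were 2 of the 12 NuRD genes, where 7.43% of all tested genes had separate groups. For CoREST all 7 were tested, 5 higher and 2 lower, with a median of 0.03. None of these genes was called with all libraries, and without both libraries numbered 1 the CoREST genes Rcor2 and Rcor3 were called higher and lower, 2 of 7, where 12% of all tested genes were called.

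Subunits of the NCoR complexes, the partners of Hdac3, numbered 5, with 2 higher and 3 lower estimates and a median of -0.12. Of the MiDAC and MIER genes, 5 of 6 were tested, 2 higher and 3 lower, with a median of -0.15. Mier3, a partner of class I deacetylases, measured 51.0, 72.7 and 67.7 CPM with vehicle and 45.1, 44.1 and 43.3 CPM with panobinostat. All Mier3 values with panobinostat lay below all vehicle values, with a log2 fold change of -0.53 (SE 0.146, edgeR adjusted p 0.998). Without vehicle library 1 Mier3 was called lower, at -0.68 with an edgeR adjusted p of 0.0284, where 0.419% of all tested genes were called lower.

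Partners of class IIa enzymes gave no call with all libraries. Of 4 MEF2 factors 3 were tested, 2 higher and 1 lower. Mef2d, a factor that class IIa enzymes repress, averaged 50.03 ± 4.43 CPM with vehicle and 56.2 ± 0.623 with panobinostat (SD, n = 3), with separate groups and a log2 fold change of 0.17 (SE 0.0993, edgeR adjusted p 0.998). All 7 genes of 14-3-3 proteins were tested, and all had higher estimates, with a median of 0.07 that was -0.05 without vehicle library 1. Without both libraries numbered 1 Ywhaz was called lower, at -0.33 with an edgeR adjusted p of 0.0488, where 4.65% of all tested genes were called lower. Of the 13 kinases that can phosphorylate class IIa enzymes, 10 had higher and 3 lower estimates, with a median of 0.09, or 0.03 without vehicle library 1. Prkd2, a protein kinase D, measured 93.1, 45.5 and 42.6 CPM with vehicle and 63.7, 64.5 and 69.2 CPM with panobinostat. Vehicle library 1 was the highest and the other vehicle libraries the lowest, as for Hdac7. Without vehicle library 1 Prkd2 was called higher, at 0.57 with an edgeR adjusted p of 0.0441, where 2% of all tested genes were called higher.

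Genes of the non-histone substrates of Hdac6 and Hdac8, such as tubulins and Smc3, numbered 9, with 4 higher and 5 lower estimates, a median of -0.04 and no call. That median was -0.07 without vehicle library 1. Of 10 polyamine genes, which act on the substrates of Hdac10, 8 had higher and 2 lower estimates, with a median of 0.07 that was 0.30 without vehicle library 1 and 0.33 without both libraries numbered 1. Srm, spermidine synthase, measured 234, 178 and 159 CPM with vehicle and 203, 293 and 267 CPM with panobinostat, with a log2 fold change of 0.41 (SE 0.200, edgeR adjusted p 0.998). Without both libraries numbered 1, 5 of the 10 were called higher (Odc1, Srm, Sms, Sat1 and Smox), where 7.36% of all tested genes were called higher.

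Of 6 genes often induced by deacetylase inhibitors, 5 were tested, with 3 estimates above and 2 below 0, and the median log2 fold change was 0.25. It was 0.59 without vehicle library 1 and 0.76 without both libraries numbered 1. No member of this list was called with all libraries. Hexim1, an inhibitor of transcription elongation, had separate groups in the lower direction, averaging 63.5 ± 2.33 CPM with vehicle and 55.0 ± 3.499 with panobinostat (SD, n = 3). Gsn, the actin-binding protein gelsolin, measured 147, 8.89 and 3.28 CPM with vehicle and 160.5, 95.1 and 81.0 CPM with panobinostat. Vehicle library 1 lay within the panobinostat range for this gene. Without vehicle library 1 Gsn was called higher, at 4.196 with an edgeR adjusted p of 0.0340, where 2% of all tested genes were called higher. Without both libraries numbered 1, H1f0, Cdkn1a, Txnip and Gsn were called higher, 4 of the 5 tested, where 7.36% of all tested genes were called higher. Cdkn1a measured 428, 60.3 and 56.9 CPM with vehicle and 85.9, 238 and 324 CPM with panobinostat. Txnip measured 1600, 697 and 722 CPM with vehicle and 503, 1012.5 and 1401 CPM with panobinostat. Vehicle library 1 was thus the highest for both, and panobinostat library 1 the lowest for Txnip. With all libraries the Txnip log2 fold change was -0.05 (SE 0.473).

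**Figure D5:**
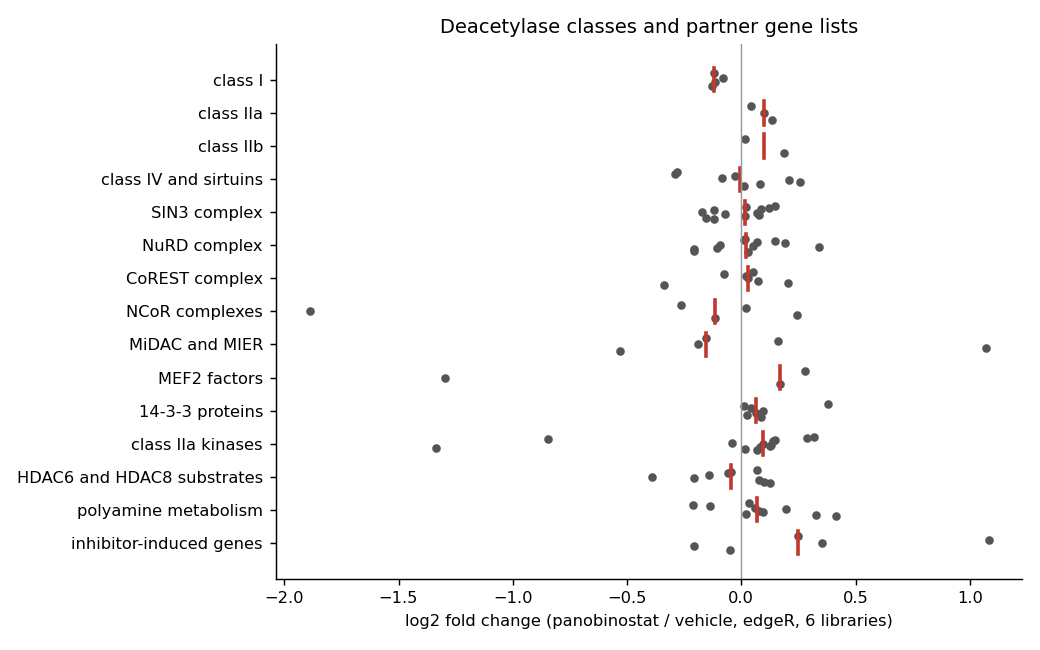
Log2 fold change of panobinostat over vehicle by edgeR with all 6 libraries, for each tested gene (grey) of the deacetylase classes and the partner lists, with the median of each list in red. List medians lie between -0.15 and 0.25.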

How the data were processed

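RNA of 6 libraries was sequenced, and the authors deposited raw counts for each Entrez gene, judged unnormalized because all values are whole. The submitters' processing notes name HISAT2 2.1.0, Subread 2.0.0 with featureCounts, limma and build mm10, besides cutadapt 2.1, FastQC 0.11.6 and bcl2fastq 2.17.1.14. They give neither the part each tool played nor the annotation or strand setting. Library numbers are those of the column names, which are not tied to the labels' replicate numbers. Each number is shared by a treated and a control column, and what the shared number stands for is not given.

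Counts were fitted in edgeR 4.0.16 (R 4.3.3) with filterByExpr (minimum count 10), TMM factors and the robust two-sided quasi-likelihood F-test, adjusted by Benjamini and Hochberg over 13207 genes, with a threshold of 0.05. SE is the log2 fold change divided by the square root of F. On data simulated for this comparison over 13207 genes, the fit called 31 of the 100 genes given a 2-fold change, 66 of the 100 given a 4-fold change, and 12 genes that had none. Lengths are unions of GENCODE M21 exons, and coordinates are from RefSeq. Likeness used log2 CPM with a prior count of 2, over genes with a mean of at least 1.

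Alternatives were other scaling factors (RLE, upper quartile, library size alone), other filters, DESeq2 1.42.0, limma-voom of limma 3.58.1, a fit that was not robust, a replicate block, a stricter threshold of 0.01, and libraries left out. The coding length was added after the data were seen. Members, lists and the rule for named genes (all members, list genes past the threshold, otherwise up to 3 per list with the smallest p) were chosen with earlier results of these data known. List genes named for a call without some libraries, and Itga2b, Vwf, Gp1ba, Cdh5, Gata2 and Kit, were chosen after their values were seen. So were Cd34, Lck, Cd5, Bst2 and Mta2. Some single genes of the lists are not reported here.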

Additional observations from a re-analysis of the deposited data

How the results depend on the processing

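The count of genes called over all genes, 0, was 9 by DESeq2, 1590 without both libraries numbered 1, and 0 to 324 with one library left out, the 324 without vehicle library 1. Members called, 0, became 1 (Hdac7, log2 fold change 0.84, edgeR adjusted p 0.00365) without both libraries numbered 1, and stayed at 0 with any one library left out. Genes called in the partner lists together, 0 of 96 tested, became 15 of 96 without both libraries numbered 1, where 12% of all tested genes were called. With one library left out they were 0 to 3. The 3 came without vehicle library 1, where 2.42% of all tested genes were called. With one library left out, Hdac4 ran from -0.14 to 0.19, Hdac7 from -0.087 to 0.71 and Hdac10 from -0.028 to 0.082, each across 0. Hdac10 was also below 0 with library size alone (-9.6e-05) and without both libraries numbered 1 (-0.0080). Hdac1, Hdac2, Hdac3, Hdac5, Hdac6 and Hdac8 kept their direction in all 16 alternatives, with no call. On coding length the log2 ratio of class I to class IIa was 1.25 in panobinostat libraries, that of class I to class IIb 2.96 in vehicle and 2.81 in panobinostat, that of Hdac1 to Hdac2 0.71 and 0.66, and that of Hdac4 to Hdac5 -2.16 and -2.19, since lengths shift both groups alike. The replicate block, with the column number as the block, called 0 genes and gave Hdac7 0.28 (SE 0.433). Same-numbered libraries deviated from their group means with r of -0.14, 0.07 and -0.20. With so few libraries per group, these values cannot decide whether same-numbered libraries were paired. The coding length from RefSeq proteins was not run. Depth limits Hdac9 alone among the members. The cause of these shifts was not tested.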
